A study of Mus musculus with 5 samples.

Results

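The renin-angiotensin-kinin group described here comprised 10 genes of the 15180 protein-coding genes measured: the substrate gene Agt, the peptidase genes Ace, Enpep, Anpep, Mme, Lnpep and Prcp, and the receptor genes Agtr1a, Bdkrb2 and Atp6ap2. All 10 were found in the deposited table by symbol. They were picked by name, as the pathway around Ace, because Ace was much higher with LDE225 in these same libraries. The values of the members in this contrast are therefore given as a description, without tests. The cells were fibroblasts sorted from KPC pancreatic tumours of mice, a model of pancreatic ductal cancer. Sorted cells excluded DAPI, carried podoplanin (PDPN) and lacked CD45, EpCAM and E-cadherin. One group, with 2 libraries, received LDE225 (sonidegib), an inhibitor of the Hedgehog signal transducer Smoothened, and the other, with 3 libraries, received vehicle. Both were dosed by oral gavage for 14 days after tumours were present, so every library came from a tumour-bearing animal and from a PDPN-positive gate. The sources used here do not give the alleles of the tumours, the age or sex of the mice, or whether the libraries came from separate animals, so the spread between libraries may be partly technical.

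Angiotensinogen, the product of Agt, is cut by renin to angiotensin I, from which angiotensin-converting enzyme (ACE) removes a dipeptide to make angiotensin II. The same enzyme breaks down bradykinin, which is released from kininogen and acts at the B2 receptor encoded by Bdkrb2, while angiotensin II acts at the type 1 receptor encoded in mice by Agtr1a and Agtr1b. The other member peptidases trim or destroy these peptides at the cell surface or in lysosomes. Fibroblasts are known targets of angiotensin II, which promotes matrix production in many tissues.

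Ace lies on the plus strand of chromosome 11, from 105967945 to 105989964 of GRCm38 in the GENCODE M21 annotation, which lists a transcript of 25 exons over that span. A shorter annotated transcript of 14 exons starts at 105975208, within intron 12 of the longest one. It matches the form of ACE that is known from testis, whereas the longer form is the one of somatic tissues. The gene-level value sums reads over all annotated transcripts of Ace, which include others than these, and cannot be divided between them. The promoters of both starts are therefore shown. They are RefSeq sequences of GRCm38.p6, plus strand, 5′ to 3′, from 250 bases before to 50 bases from the start on, at chr11:105967698-105967997 for the upstream start and at chr11:105974939-105975238 for the internal start. Capitals mark TATAA and GGGCGG in the upstream sequence and TGAGGTCA in the internal one, each searched on both strands.
Ace upstream start: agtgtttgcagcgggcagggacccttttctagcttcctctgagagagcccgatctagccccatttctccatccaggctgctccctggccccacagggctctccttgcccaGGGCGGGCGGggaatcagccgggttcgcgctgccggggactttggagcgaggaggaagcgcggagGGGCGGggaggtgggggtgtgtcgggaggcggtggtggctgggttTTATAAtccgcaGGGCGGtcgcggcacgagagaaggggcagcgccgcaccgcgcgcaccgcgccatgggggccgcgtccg
Ace internal start: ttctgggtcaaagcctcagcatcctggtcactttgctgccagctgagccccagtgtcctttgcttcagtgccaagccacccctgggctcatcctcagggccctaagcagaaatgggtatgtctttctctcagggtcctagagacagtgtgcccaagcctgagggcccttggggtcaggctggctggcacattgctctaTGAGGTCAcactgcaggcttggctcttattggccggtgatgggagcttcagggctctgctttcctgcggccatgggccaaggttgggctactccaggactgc

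The upstream sequence held GGGCGG, the letters of a GC box, at 4 positions, with a pair of them overlapping. It held TATAA on both strands as the overlapping letters TTATAA, whose first base stands at -30 relative to the start. Over all 32851 promoter entries of the same length, 24.9% held TATAA and 35.7% held GGGCGG. The internal sequence held TGAGGTCA, which resembles a cyclic AMP response element, at -52, and 2.17% of all entries held those letters. The core letters bound by the GLI factors of the Hedgehog pathway, GACCACCCA, were searched on both strands as well. They stood in 0.253% of all entries and in none of the 12 entries of the 9 members with an entry. Agtr1a had no entry. This says only that these letters are not in these windows, and a match is likewise a description of letters, not of binding.

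Ace was the member with the largest difference. It had 10064 and 10544 normalised counts in the LDE225 libraries, against 1696, 1395 and 1976 in the vehicle libraries. The groups did not overlap, and the lower LDE225 library was still 5.09-fold above the highest vehicle library. The means were 10304 ± 339.5 normalised counts with LDE225 (SD, n = 2) and 1689 ± 291 with vehicle (SD, n = 3), a ratio of 6.10 and a log2 fold change of 2.62 ± 0.19 (SE). Behind these values stood 12527 and 12475 reads in the LDE225 libraries and 1331, 1445 and 1697 reads in the vehicle libraries. With each library left out in turn the log2 fold change stayed between 2.49 and 2.74. In sorted bulk cells, more cells that carry Ace and more Ace RNA per cell cannot be told apart. An antisense gene, Gm11651, covers much of Ace on the opposite strand. The kit marks strand but the sources used here do not give the strand setting of the counting, so reads from Gm11651 could be part of the Ace value.

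**Figure D1:**
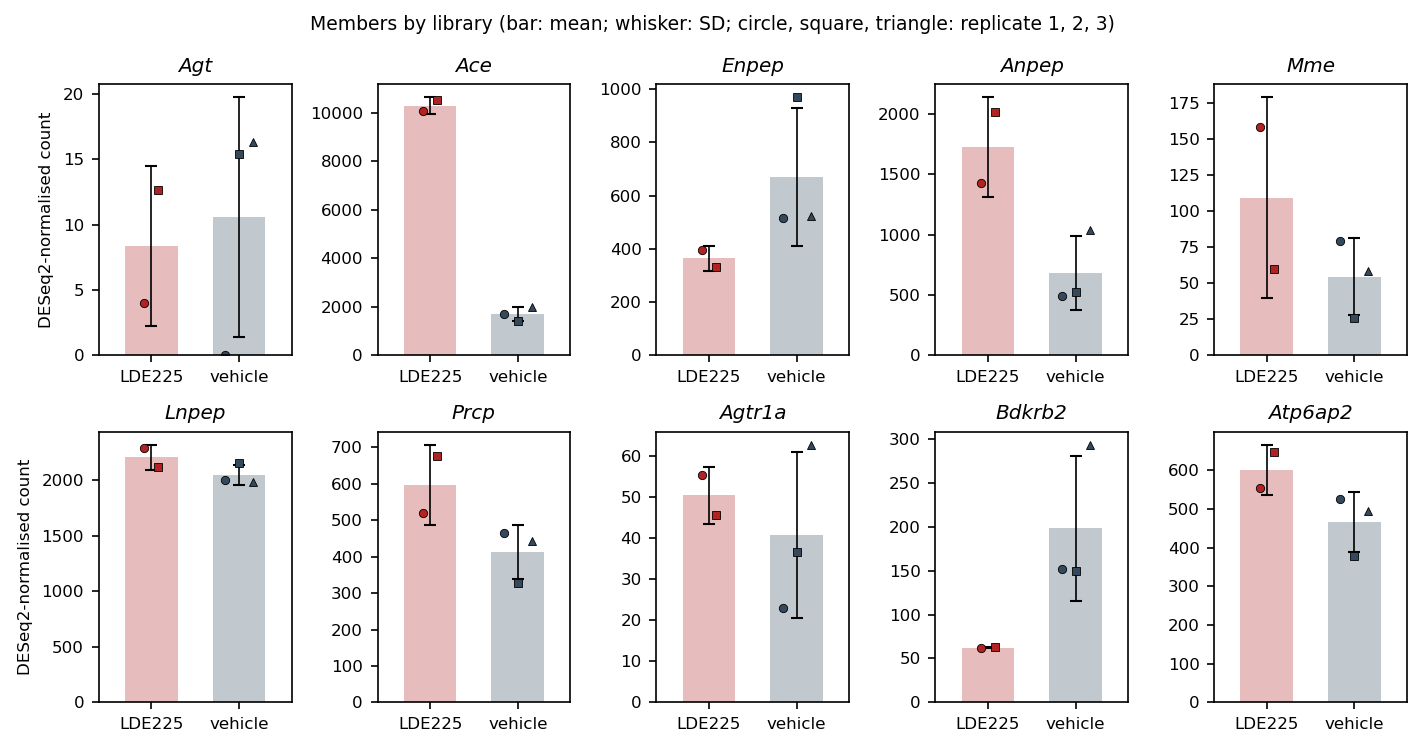
DESeq2-normalised counts (vertical axes, linear from 0, a scale per panel) of the 10 members in each library, with LDE225 left of vehicle. Bars are means, whiskers SDs, and circles, squares and triangles replicates 1, 2 and 3. Ace lies at 10064 and 10544 with LDE225 and between 1395 and 1976 with vehicle, while Bdkrb2 lies lower with LDE225 and Lnpep is nearly level.

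The other members lie on chromosome 3 (Mme from 63241537 to 63386030 and Enpep from 129269175 to 129332720), 7 (Anpep from 79821803 to 79861059 and Prcp from 92874470 to 92934583), 8 (Agt from 124556534 to 124569706), 12 (Bdkrb2 from 105563226 to 105595237), 13 (Agtr1a from 30336441 to 30382867), 17 (Lnpep from 17521410 to 17625050) and X (Atp6ap2 from 12587801 to 12617049), all in GRCm38. Other annotated transcripts share bases with some of them, on the same strand for Anpep, Lnpep, Prcp and Agtr1a and on the opposite strand for Enpep, so a part of their reads may be ambiguous.

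Among the other member peptidases, Anpep and Prcp were higher with LDE225 in every library, Enpep was lower, and Mme and Lnpep overlapped. Anpep, aminopeptidase N, which trims angiotensin III, had 1431 and 2017 normalised counts in the LDE225 libraries, against 489, 520.5 and 1034 in the vehicle libraries. Its log2 fold change was 1.40 ± 0.35 (SE), and vehicle 3 stood well above the other vehicle libraries. Prcp encodes a lysosomal carboxypeptidase that can inactivate angiotensin II. It had 519.0 and 675.3 normalised counts with LDE225, against 466.4, 328.3 and 443.7 with vehicle. The LDE225 libraries lay just above the highest vehicle library, with a log2 fold change of 0.54 ± 0.22 (SE) that dropped to 0.35 without LDE225 2.

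Enpep went the other way. It encodes aminopeptidase A, which converts angiotensin II to angiotensin III, and had 396.9 and 330.5 normalised counts with LDE225, against 517.4, 969.5 and 521.7 with vehicle. The LDE225 mean was 0.543 times the vehicle mean, with a log2 fold change of -0.82 ± 0.30 (SE). Much of that rested on vehicle 2, since the log2 fold change was -0.52 without that library. Ace, which makes angiotensin II, was higher with LDE225 in the same libraries in which Enpep was lower.

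Mme and Lnpep showed no separation. Mme encodes neprilysin, a peptidase of angiotensin I, bradykinin and natriuretic peptides, and had 158.3 and 60.0 normalised counts with LDE225, against 79.0, 26.1 and 58.2 with vehicle. LDE225 1 alone was high, and the log2 fold change of 0.97 ± 0.60 (SE) was 0.27 without LDE225 1 and 1.66 without LDE225 2. Lnpep, an insulin-regulated aminopeptidase that binds angiotensin IV, had 2287 and 2124 normalised counts with LDE225, against 2005, 2151 and 1988 with vehicle. Its log2 fold change of 0.11 ± 0.14 (SE) was smaller than its error and became -0.026 when libraries were scaled to the same total.

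Among the receptors, Bdkrb2 was lower with LDE225. The B2 receptor gene had 61.9 and 62.5 normalised counts in the LDE225 libraries, against 151.6, 149.7 and 293.5 in the vehicle libraries. No vehicle library came near the LDE225 values, and the LDE225 mean was 0.314 times the vehicle mean, with a log2 fold change of -1.58 ± 0.35 (SE). Without vehicle 3, the highest library, the log2 fold change was -1.26.

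The angiotensin receptor gene Agtr1a was low in all libraries, with 55.4 and 45.6 normalised counts with LDE225, against 22.9, 36.7 and 62.9 with vehicle. The groups overlapped, and the log2 fold change of 0.41 ± 0.49 (SE) ranged from 0.064 without vehicle 1 to 0.77 without vehicle 3. Atp6ap2, the prorenin receptor and a subunit partner of the vacuolar proton pump, had 555.1 and 647.4 normalised counts with LDE225, against 526.3, 379.5 and 493.8 with vehicle. Its LDE225 libraries lay above each vehicle library by a small margin, with a log2 fold change of 0.38 ± 0.19 (SE) that was 0.23 without vehicle 2.

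The substrate gene Agt was near the limit of detection. It had 4.0 and 12.7 normalised counts with LDE225, against 0, 15.4 and 16.3 with vehicle, from 5 and 15 reads and from 0, 16 and 14 reads. The means were 8.35 ± 6.12 normalised counts with LDE225 and 10.6 ± 9.18 with vehicle (SD, n = 2 and 3), below the minimum set for the table as a whole, and the groups overlapped. The 0 in vehicle 1 allows up to 3.82 normalised counts, which covers counting error only. The LDE225 mean was thus the lower one, whereas the log2 fold change without the filter was 0.33 with all libraries and -1.03 without vehicle 1. That sign was opposite under 6 of 17 other settings, so no direction is given for Agt.

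Counted over the 10 members, 9 passed the minimum mean of 10 normalised counts and Agt did not. Both LDE225 libraries lay above every vehicle library for 4 members (Ace, Anpep, Prcp and Atp6ap2) and below for 2 (Enpep and Bdkrb2), while 4 overlapped. Over the 13183 genes tested, 16.6% lay above in this way and 15.2% below. Since the members were picked from this contrast, nothing is read from their counts. The median log2 fold change of all 10 members was 0.39, beside 0.00296 over all genes tested.

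**Figure D2:**
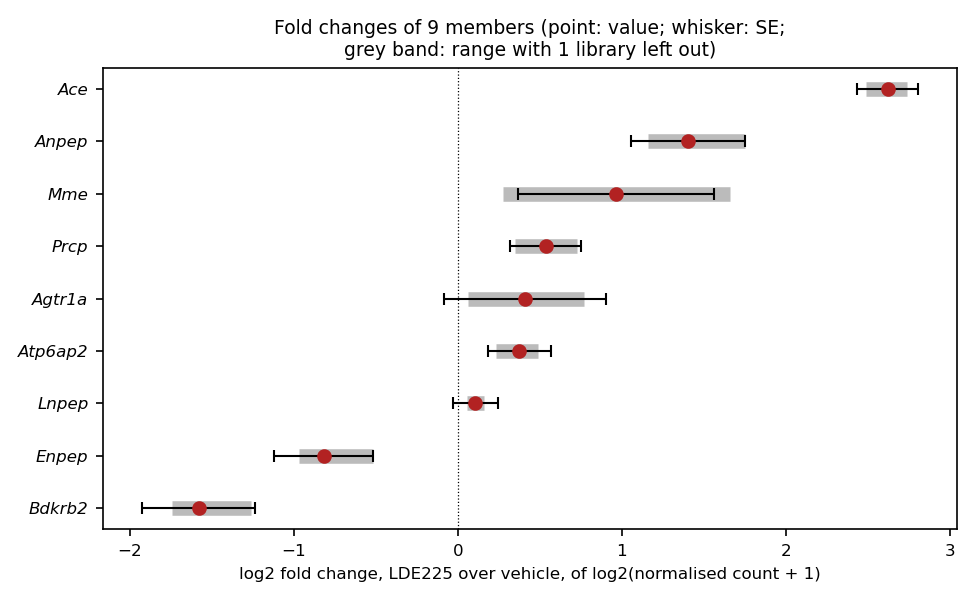
Log2 fold change of LDE225 over vehicle for the 9 members above the minimum mean (point), with its standard error (whisker) and the range when each library was left out in turn (grey band). Ace stands at 2.62 and Bdkrb2 at -1.58, and the band of Mme reaches from 0.27 to 1.66.

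To compare members with each other, levels were divided by the length of their annotated exons and given as normalised counts per kilobase. In LDE225 fibroblasts the order was Ace (1949 ± 64.2, SD), Anpep (417 ± 100.2), Atp6ap2 (230 ± 24.9), Lnpep (156 ± 8.16), Prcp (109 ± 20.1), Enpep (77.3 ± 9.98), Agtr1a (18.1 ± 2.49), Bdkrb2 (16.4 ± 0.128), Mme (9.46 ± 6.02) and Agt (4.41 ± 3.24). The libraries of Agtr1a and Bdkrb2 overlapped, as did those of Mme and Agt, and the other neighbours in the order did not.

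In vehicle fibroblasts Ace also came first, at 319.5 ± 55.0 normalised counts per kilobase (SD). Below it Atp6ap2 (178 ± 29.5), Anpep (165 ± 74.0), Lnpep (145 ± 6.36) and Enpep (142 ± 55.2) could not be separated from each other by their libraries. Prcp (75.1 ± 13.5) and Bdkrb2 (52.3 ± 21.7) overlapped, and Agtr1a, Agt and Mme lay at 14.7, 5.60 and 4.72, each overlapping the next. Among 15150 genes with a length, Ace ranked 196 in LDE225 fibroblasts and 1288 in vehicle fibroblasts. Exon length here covers all annotated exons, which understates a gene whose cells use a shorter transcript.

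Seen as a mixture, the 6 member peptidases were dominated by Ace with LDE225. Of their summed level per kilobase, Ace took 73.1% and 70.5% in the LDE225 libraries, against 41.0%, 32.6% and 38.9% in the vehicle libraries. Enpep took 3.24% and 2.48% with LDE225, against 14.0%, 25.4% and 11.5% with vehicle. The ratio of Ace to Enpep, both per kilobase, was 22.6 and 28.4 with LDE225 and 2.92, 1.28 and 3.37 with vehicle. Anpep kept a similar share, with 13.3% and 17.2% in the LDE225 libraries and 15.1%, 15.5% and 26.0% in the vehicle libraries, although its own level was higher with LDE225. The share of Lnpep was lower with LDE225, at 6.21% and 5.31%, against 18.1%, 18.8% and 14.6% with vehicle, while its level was nearly the same. Prcp took 3.63% and 4.34% with LDE225, against 10.8%, 7.37% and 8.40% with vehicle, so it lost share although its level was higher. Mme stayed under 1% in every library. The shares are parts of a whole that includes Ace, which was picked for its rise. A lower summed share of the other members with LDE225 follows from that choice.

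**Figure D3:**
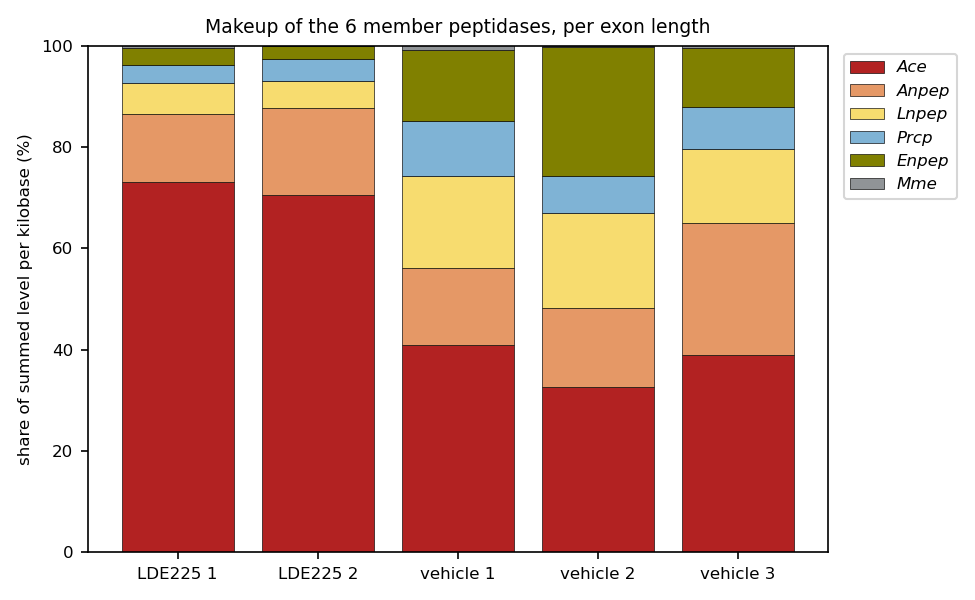
Share of each member peptidase (%) in the summed normalised counts per kilobase of Ace, Anpep, Lnpep, Prcp, Enpep and Mme, per library. Ace makes up 70.5% or more with LDE225 and 41.0% or less with vehicle, and Enpep makes up 3.24% or less with LDE225 and 11.5% or more with vehicle.

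The rest of the pathway was taken from 5 lists with 100 different genes that are no members, of which 87 were in the table and 78 were tested. Limma called 0 of the 78 in either direction at an adjusted p of 0.05, where it called 0.0228% of all genes tested higher and 0.00759% lower, and the smallest adjusted p was 0.0893 (Dpep1). edgeR also called 0, where it called 0.0152% of all genes higher and 0% lower. Without adjustment, limma's p was under 0.05 for 20 higher and 3 lower genes, where 6.92% and 5.71% of all genes tested were in each direction. DESeq2 called 12 higher (15.4% of the 78, beside 2.3% of all genes) and 1 lower (1.28%, beside 1.77%). In 27 genes (34.6%, beside 16.6% of all genes) the LDE225 libraries lay above every vehicle library, and in 10 (12.8%, beside 15.2%) below. The median log2 fold change was 0.27. The lists were chosen with earlier results of these data known, so these shares are a description and nothing is read from their excess. Leaving out 1 library at a time moved the limma counts over the whole table to between 0 and 6 higher and between 0 and 4 lower.

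In the angiotensin list, with 14 genes tested, limma called 0 (4 higher and 1 lower at an unadjusted p under 0.05), and DESeq2 called Ctsd and Ctsa higher and Thop1 lower. The median log2 fold change of the list was 0.24. Cathepsin D (Ctsd), a lysosomal aspartic protease that can cut angiotensinogen, had 6078 and 7048 normalised counts with LDE225, against 4484, 4146 and 4688 with vehicle (limma adjusted p = 0.244). Cathepsin A (Ctsa), a lysosomal carboxypeptidase, had 1905 and 2012 with LDE225, against 1418, 1198 and 1269 with vehicle (limma adjusted p = 0.188). Thop1, thimet oligopeptidase, which cleaves angiotensin I and bradykinin, was lower at 237.8 and 240.9 with LDE225, against 401.4, 363.1 and 371.5 with vehicle (limma adjusted p = 0.187). Atp6ap1, the partner of Atp6ap2 in the proton pump, was above as well, with a log2 fold change of 0.40 (limma adjusted p = 0.329). Ctsz, cathepsin Z, had one of 0.28 (limma adjusted p = 0.501).

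Renin and the alternative receptors of angiotensin peptides were low in these cells. Ren1, renin, had 11.2 and 16.9 normalised counts with LDE225, against 6.4, 1.0 and 40.8 with vehicle. Mas1, the receptor gene of another angiotensin fragment, had 5.6 and 0.8 with LDE225, against 0, 1.0 and 0 with vehicle. Agtr2, the type 2 receptor gene, had 0 and 3.4 with LDE225, against 3.8, 47.3 and 0 with vehicle. Vehicle 2 alone was high for Agtr2, with 49 reads, and stood above the 36.7 of Agtr1a in that library. The groups overlapped for Ren1 and Agtr2, and also for Mas1.

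In the kinin list, 12 genes were tested, with a median log2 fold change of 0.25. Limma called 0 (5 higher and 1 lower at an unadjusted p under 0.05), and DESeq2 called Kng2, Xpnpep2, Dpp4 and Serping1, all higher. Kng2, a kininogen gene, had 1136 and 877.3 normalised counts with LDE225, against 235.8, 368.9 and 326.1 with vehicle (log2 fold change 1.71 ± 0.23, limma adjusted p = 0.0913). Kng1, its neighbouring paralogue, had 139.8 and 115.8 with LDE225, against 35.7, 36.7 and 72.2 with vehicle (limma adjusted p = 0.222), and the division of reads between these 2 near-identical genes is uncertain. Serping1, the C1 inhibitor that blocks kallikrein, had a mean of 25616 with LDE225 and 9347 with vehicle (log2 fold change 1.48 ± 0.26, limma adjusted p = 0.129). Xpnpep2, a membrane aminopeptidase that breaks bradykinin, had 392 and 467 with LDE225, against 76.5, 51.2 and 203 with vehicle (limma adjusted p = 0.200). Bdkrb1, the inducible B1 receptor, had 106.0 and 149.6 with LDE225, against 147.8, 180.6 and 471.7 with vehicle, and its groups overlapped. Cpm, a carboxypeptidase that trims kinins, was lower with a log2 fold change of -1.23 ± 0.51 (limma adjusted p = 0.392).

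Among 20 genes of receptor coupling and feedback, 9 had a positive log2 fold change (45%, beside 50.4% of all genes tested) and 11 a negative one. The median was -0.047. DESeq2 called 1, Nox4, an oxidase that makes hydrogen peroxide, and limma called 0 (3 higher and 0 lower at an unadjusted p under 0.05). Nox4 had 424 and 784 normalised counts with LDE225, against 238, 128 and 246 with vehicle (limma adjusted p = 0.197). Grk5, a kinase that desensitises receptors, had 787 and 966 with LDE225, against 330.1, 245 and 596 with vehicle (limma adjusted p = 0.244). Rgs4, which shortens G protein signals, had 255 and 95.5 with LDE225, against 53.5, 81.1 and 53.6 with vehicle, so LDE225 1 made most of that difference (limma adjusted p = 0.307). Grk2, a related kinase, lay lower, at 508 and 507 with LDE225, against 601 or more with vehicle (limma adjusted p = 0.402). The most abundant members of the list, Rcan1 and Gna12, had log2 fold changes of 1.07 and -0.054.

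Among 17 other peptidases that act on small peptides, the median log2 fold change was 0.27. Limma called 0 (5 higher and 2 lower at an unadjusted p under 0.05), and DESeq2 called 4, all higher. Dpep1, a membrane dipeptidase, had 1863 and 2192 normalised counts with LDE225, against 399, 462 and 712 with vehicle (limma adjusted p = 0.0893). Dpp4, a dipeptidyl peptidase of many small peptides, had 1323 and 1335 with LDE225, against 598, 116 and 229 with vehicle (limma adjusted p = 0.206). Ggt5, a gamma-glutamyltransferase of glutathione conjugates, had 403 and 527 with LDE225, against 89.2, 111 and 249 with vehicle (limma adjusted p = 0.200). Naaladl2, a relative of the glutamate carboxypeptidases, had 269.9 and 237 with LDE225, against 129, 99.5 and 107 with vehicle (limma adjusted p = 0.137). Both LDE225 libraries stood above every vehicle library in each of these 4 genes, which DESeq2 had called higher, so nothing is read from that. Of the 17 genes, 7 lay above in this way (41.2%, beside 16.6% of all genes tested). Another 4 lay below (23.5%, beside 15.2%).

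Among 20 ligands and receptors of other vasoactive peptides, 15 had a positive log2 fold change (75%, beside 50.4% of all genes tested). The median was 0.65. Limma called 0 (4 higher and 0 lower at an unadjusted p under 0.05), and DESeq2 called Adm and Ramp1, both higher. Adm, the vasodilator adrenomedullin, had 543 and 622 normalised counts with LDE225, against 163, 161 and 236 with vehicle (limma adjusted p = 0.0913). Ramp1, a partner of the receptors for calcitonin gene-related peptide, had 123 and 203 with LDE225, against 40.8, 33.8 and 4.66 with vehicle (limma adjusted p = 0.259). Pth1r, the parathyroid hormone receptor, had 308 and 320.3 with LDE225, against 89.2, 208 and 148 with vehicle (limma adjusted p = 0.264). Npr2, the receptor of C-type natriuretic peptide, had a log2 fold change of 0.46 (limma adjusted p = 0.307). Tmsb4x, the source of a small peptide that is a known substrate of ACE, had 6996 and 6842 with LDE225, against 6820.4, 5438 and 8388 with vehicle, and its groups overlapped. Ednra, the endothelin A receptor, also overlapped.

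**Figure D4:**
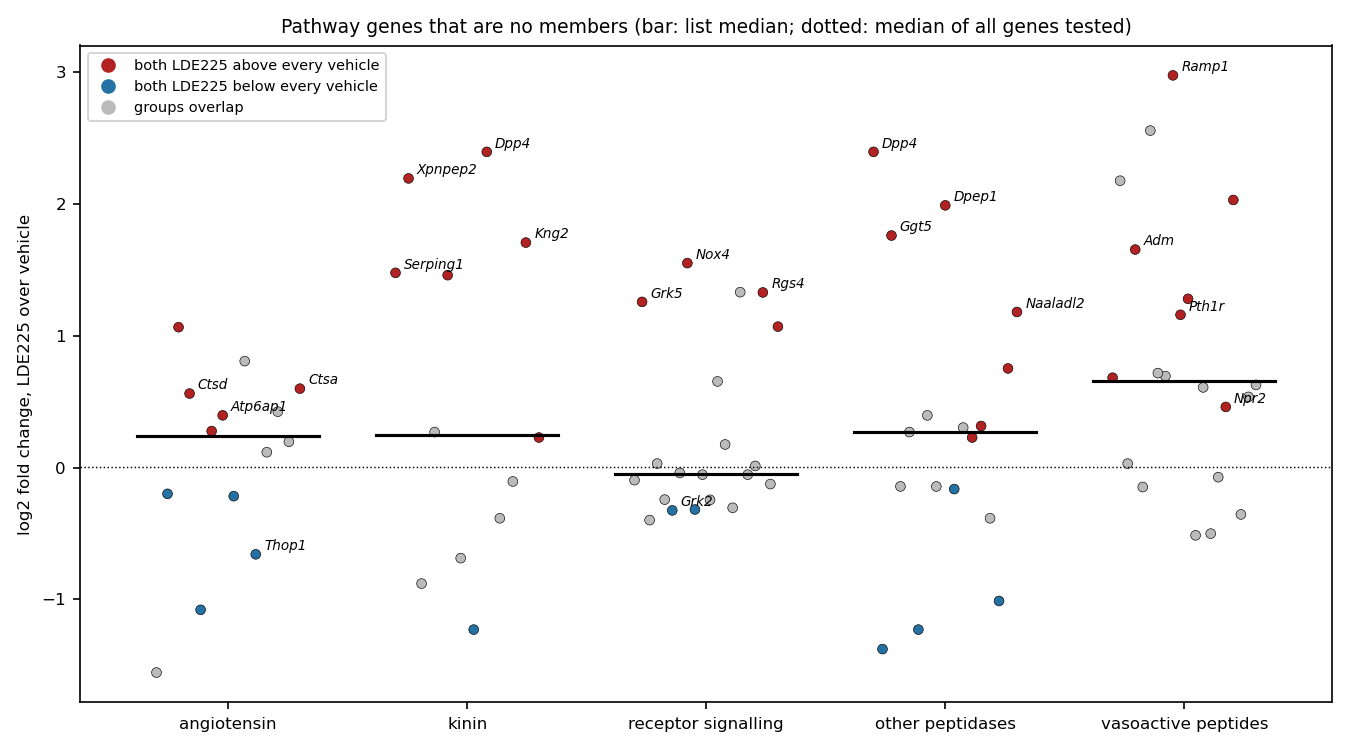
Log2 fold change of LDE225 over vehicle for the pathway genes tested, by list, coloured by whether both LDE225 libraries lay above (red) or below (blue) every vehicle library. Black bars are list medians (0.24, 0.25, -0.047, 0.27 and 0.65 from left to right), and 5 genes, Dpp4 among them, stand in 2 lists.

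Ace was also set against all 10931 genes with a mean of at least 50, by the root mean square difference of log2 profiles over the 5 libraries, each centred on its own mean. This is a description over few libraries, and the median gene lay at 1.31. The nearest gene was Col28a1, a collagen gene, at 0.0718, with 1634 and 1659 normalised counts with LDE225 and 266, 206 and 340.1 with vehicle. Svep1, a matrix protein, lay at 0.213, Mmp11, a matrix metalloproteinase, at 0.229, Vegfd, a lymphatic growth factor, at 0.285 and Pla1a, a phospholipase, at 0.293. Vegfd had 1689 and 1942 normalised counts with LDE225 and 456, 224 and 459 with vehicle. Pla1a had 4075 and 4399 with LDE225 and 575, 866 and 967 with vehicle. These 5 genes were thus high in both LDE225 libraries and low in all 3 vehicle libraries, which is what nearness to Ace selects. The nearest member was Anpep at 0.669, with 1.14% of genes nearer to Ace. Bdkrb2 lay at 2.07, farther than 98.9% of genes.

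**Figure D5:**
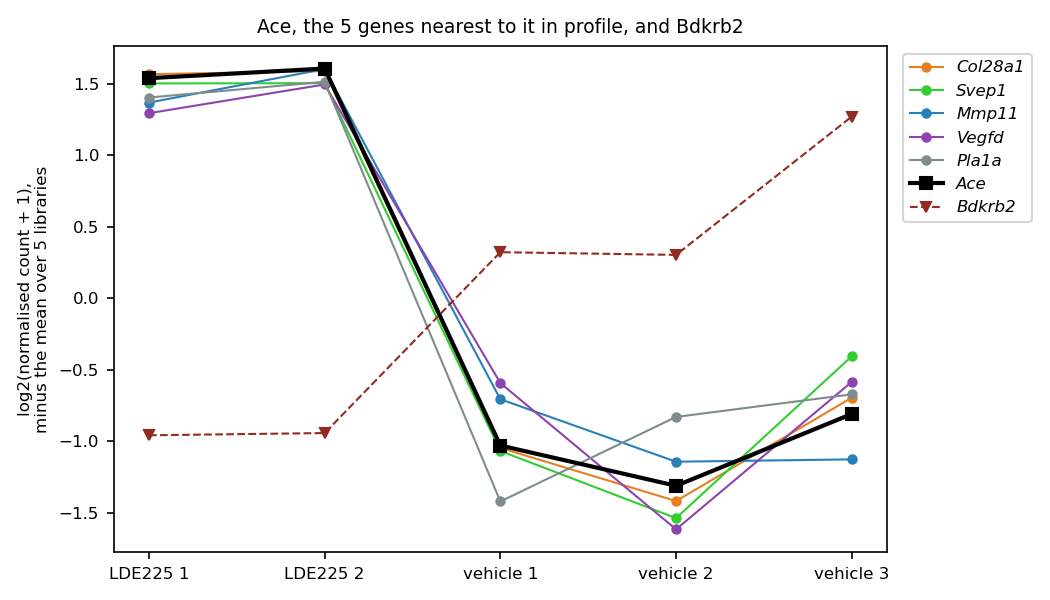
Log2 of normalised counts plus 1, minus the gene's mean over the 5 libraries, for Ace (black), the 5 genes nearest to it and Bdkrb2 (dashed). The 5 genes lie high with LDE225 and low with vehicle, as Ace does, and Bdkrb2 runs opposite.

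Of the neighbours of Ace on chromosome 11 in the table, Cyb561, whose gene ends 14608 bases before Ace, was higher with LDE225, with a mean of 527 normalised counts against 295 with vehicle. Its log2 fold change was 0.85 ± 0.19, and limma did not call it (adjusted p = 0.184), while DESeq2 did (adjusted p = 0.0256). It encodes a transmembrane electron carrier of secretory vesicles. Of 6 neighbours, limma called 0 (1 at an unadjusted p under 0.05), edgeR 0 and DESeq2 1, and 3 lay above every vehicle library with LDE225. Over all genes tested, 6.92% had such an unadjusted p in the higher direction, DESeq2 called 2.3% higher, and 16.6% lay above every vehicle library. Tanc2, Mrc2, Dcaf7, Taco1 and Map3k3 had log2 fold changes of 0.22, -0.027, 0.14, -0.18 and 0.33. Not all of them lie close to Ace, since Mrc2 is 616805 and Map3k3 94648 bases away. Dcaf7 counts as above, but its lower LDE225 library was only 1.007 times its highest vehicle library.

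The libraries held between 13671817 and 14083280 reads on these genes with LDE225 and between 7578822 and 11194991 with vehicle, so 1 read was worth 0.803 to 1.27 normalised counts. Gli1, a target of Hedgehog signalling, had 22.5 and 14.4 normalised counts with LDE225, against 315, 463 and 264 with vehicle. Ptch1, the Hedgehog receptor gene and also a target, had 179 and 207 with LDE225, against 459, 1080 and 526 with vehicle.

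Markers of other cell types were read beside the members, and their part in the results was not tested. Over all genes tested, 16.6% lay above every vehicle library with LDE225 and 15.2% below, and nothing is read from the marker counts. Universal fibroblast markers such as Pi16 and Dpt were above in 6 of 8 genes with LDE225, and their summed level was 43518 to 63772 normalised counts with LDE225 and 18379 to 49657 with vehicle. Most of the vehicle 2 sum came from Col15a1, at 46331 in that library. The sums of all 8 overlapped between the groups. Without Col15a1, the sums were 26839.8 and 44624 with LDE225, against 10107, 3327 and 23125 with vehicle. That omission was chosen after the values were seen, so nothing is read from the gap it leaves. Vehicle 2, with the highest Enpep and lowest Ace and Mme, was the lowest library for all universal fibroblast markers except Col15a1. Dpp4 stands among these markers too. Ace is also made by endothelial cells. Their 12 markers summed to 2978 to 4049 with LDE225 and 1943 to 3981 with vehicle, with Emcn at 0 in LDE225 1. The only marker above was Eng, at 1787 and 2348 with LDE225, against 863, 1011 and 1490 with vehicle, and 11 overlapped. Eng was the largest single part of the sum in every library. Vehicle 2 was also the lowest library for the other endothelial markers except Flt1 and Emcn, with Pecam1 at 18.3 and Cdh5 at 22.2. The same held for the lymphatic markers except Flt4, so low values in vehicle 2 were not particular to the universal fibroblast markers. Epithelial markers summed to 2326 to 6311 with LDE225 and 6332 to 7017 with vehicle, with 3 of 9 below. These were the keratins Krt8, Krt18 and Krt19, and Krt19 is also in the mesothelial list. The other 6 overlapped, and Epcam, Cldn4 and Cldn7 were highest in LDE225 1. Epcam had 687 and 78.6 with LDE225, against 325, 71.5 and 213 with vehicle. Mesothelial markers summed to 4131 to 4571 with LDE225 and 5136 to 12216 with vehicle, with 4 of 6 below. Pericyte markers (4278 to 7413 against 5478 to 13601), leukocyte markers (1040 to 1188 against 690 to 1804), lymphatic markers (741 to 896 against 276 to 1565) and acinar markers (93.2 to 373 against 119 to 563) overlapped between LDE225 and vehicle. Neural markers summed to 2704 to 3078 with LDE225 and 3208 to 5843 with vehicle, almost all from Ncam1. The fibroblast markers, led by Col1a1, Col3a1 and Col1a2, summed to 1126526 to 1214876 with LDE225 and 628204 to 1221075 with vehicle, a sum carried by the collagens. Of these 10 markers, Pdpn, Dcn and Lum lay above every vehicle library with LDE225 and Thy1 lay below. Pdpn, the gate marker, had 4665 and 5183 with LDE225, against 4052, 2123 and 4032 with vehicle (limma adjusted p = 0.492). Ace, Anpep, Prcp and Atp6ap2 were higher in the same libraries, as were 16.6% of all genes tested. A link to the gate was not tested.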

How the data were processed

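The authors deposited DESeq2-normalised counts per gene (a signal, with no log and no length scaling) for 15180 protein-coding genes in 5 libraries. STAR 2.7.3, RSEM 1.2.29, DESeq2 1.22.2 and GRCm38 come, with no role stated, per the submitters' processing notes. Neither the annotation release nor the strand setting is stated in the sources used here. All values were whole multiples of 1 read per library, within 0.001 reads, which gave read counts. Another 3 columns without a header, with entries for 9 genes, were not used, and 23 symbols had been turned into dates.

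LDE225 (2 libraries) was compared with vehicle (3 libraries) by limma 3.58.1 (R 4.3.3, trend) on log2(value + 1). The 13183 genes whose mean reached 10 were tested (two-sided), and p-values were adjusted by Benjamini-Hochberg over that whole set. Fold changes are on that scale, which understates low genes. edgeR 4.0.16 and DESeq2 1.42.0 were run on the recovered reads. The steps were also run on simulated data, and the outcome of that run is not given here. DESeq2 gave no adjusted p for 513 genes. Exon lengths are from GENCODE M21. The members and the lists (5 pathway, 10 marker) were chosen with earlier results of these data known. Besides the members, genes were named by smallest p (up to 4) and highest mean (up to 2) per list, nearness to Ace, and position next to it. Ren1, Mas1, Agtr2, Kng1, Bdkrb1 and Cpm were named after their values were seen. So were some markers, among them Dcn, Lum, Thy1, Epcam, Cldn4, Cldn7, Pecam1, Cdh5, Flt1 and Flt4. A few genes that this naming covers are not reported here.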

Additional observations from a re-analysis of the deposited data

How the results depend on the processing

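The log2 fold change of Ace stayed between 2.49 and 2.74 under every alternative run, and 2 or 3 libraries a group limit all values. Over the whole table, limma called 3 genes higher and 1 lower. With array weights these became 70 higher and 38 lower, with the replicate block 16 higher and 5 lower, and with DESeq2 303 higher and 233 lower. Without a trend 0 were lower, in edgeR 0 were lower, and with the same total in each library 2 were lower. Leaving out each library gave 0 to 6 higher and 0 to 4 lower. Without LDE225 1 or vehicle 1 there were 0 of either, without LDE225 2 there were 0 higher and 4 lower, without vehicle 2 there were 6 higher and 1 lower, and without vehicle 3 there was 1 higher and 0 lower. Where a group was left with 1 library, it was assumed to vary like the others. Among the pathway genes, 0 were called, but array weights gave 6 higher, the block 1 higher, and DESeq2 12 higher and 1 lower. Scaling to the same total moved the median of all genes to -0.13. The replicate numbers pair nothing that the labels name: libraries of the same number had deviations that correlated at 0.132 and -0.017 over genes. Replicate 3 exists only in vehicle, so the block takes vehicle 3 out of the contrast. For Ace the block gave 2.74, the same as without vehicle 3, so it is no separate check. The cause of the differences between settings was not tested. Agt reversed under 6 settings and reached -1.03 without vehicle 1, and Lnpep was -0.026 at the same total.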
